A study of Mus musculus with 54 samples.

Results

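Interferon-gamma GTPases are proteins that cells make in large amounts when they are exposed to interferon-gamma. The 10 genes described here are 6 guanylate-binding proteins (Gbp2, Gbp3, Gbp5, Gbp6, Gbp7 and Gbp9) and 4 immunity-related GTPases (Igtp, Irgm1, Irgm2 and Iigp1). They were picked by gene symbol from the count tables of liver, kidney and quadriceps, where they are 10 of 55471 gene rows. All 10 passed the filter on low counts in every tissue. Poly(A) RNA had been sequenced from these tissues in both sexes of C57BL/6J, an inbred mouse strain. Young mice were 50 weeks old, and their diet is not spelled out in the labels. Old mice were 130 weeks old and on the control diet. Corylin mice were also 130 weeks old and had long been given food containing corylin, a flavonoid from the plant Psoralea corylifolia. Each sex and condition was represented by 3 libraries a tissue from separate animals, except male corylin liver, with 2 (replicates 2 and 3). All comparisons are between whole tissues, in which fewer cells of a type and less RNA per cell cannot be told apart.

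Interferon-gamma, secreted mainly by T cells and natural killer cells, binds the receptor chains Ifngr1 and Ifngr2. The kinases Jak1 and Jak2 pass the signal on. Promoters of genes it induces often hold gamma-activated sites (GAS) or interferon-stimulated response elements (ISRE), the latter bound by interferon regulatory factors such as Irf1. Guanylate-binding proteins are large GTPases that assemble on the vacuoles and surfaces of intracellular bacteria and parasites. Immunity-related GTPases fall into regulators (Irgm1, Irgm2 and Igtp), which guard the cell's own membranes, and effectors such as Iigp1, which coat the vacuoles of parasites. Type I interferon also induces many of these genes.

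The genes lie in clusters of related copies. On GRCm38, Gbp5 (ENSMUSG00000105504, chr3:142493978-142522344), Gbp7 (ENSMUSG00000040253, chr3:142530342-142550149), Gbp3 (ENSMUSG00000028268, chr3:142560026-142573209) and Gbp2 (ENSMUSG00000028270, chr3:142620602-142638008) follow each other on the plus strand of chromosome 3. Gbp9 (ENSMUSG00000029298, chr5:105077630-105139539) and Gbp6 (ENSMUSG00000104713, chr5:105270702-105293698) are on the minus strand of chromosome 5. Igtp (ENSMUSG00000078853, chr11:58199556-58207591) lies inside the span of Irgm2 (ENSMUSG00000069874, chr11:58199618-58222782) for nearly all of its length, both on the plus strand. Irgm1 (ENSMUSG00000046879, chr11:48861968-48871683) is on the minus strand of chromosome 11. Gbp9 overlaps Gbp8 and Gbp4 on its own strand, Gbp6 overlaps Gm43302, Gbp7 overlaps Gm43802 and Gbp2 overlaps the antisense Mir6381. Reads of Igtp and Irgm2, of Gbp9 and its neighbours and of near-identical family members may have been split uncertainly. The strand setting of the counting is not given in the sources used here, and it would not separate genes on the same strand.

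Promoter windows were taken from RefSeq (GRCm38.p6) and ran from 250 bases before to 50 bases after the annotated start. They covered 7 of the 10 genes, in 8 windows because Gbp3 has 2 starts. The other 3 genes were not searched, so the counts below do not describe them. Each window was searched on both strands for GAS, spelled TTCNNNGAA, and ISRE, spelled GAAA and GAAA with any 2 bases between them. An ISRE match was present for all 7 searched genes, against 3.44% of 32851 mouse promoters searched the same way. GAS matches were present for 4 (Gbp5, Gbp7, Igtp and Irgm2), against 8.3% of promoters, and the same 4 held both motifs in 1 window, against 0.454%. A match describes letters and is not a binding site shown by experiment. The 250 bases before the start are shown for Gbp2 and Gbp3, which changed most in several comparisons, and for the regulators Irgm1, Igtp and Irgm2. They are written 5′ to 3′ in the direction of the gene, with matches to either motif in capitals. They lie at chr3:142620413-142620662 (plus strand) for Gbp2, chr3:142559794-142560043 (plus) for the first start of Gbp3, chr11:48871421-48871670 (minus) for Irgm1, chr11:58199306-58199555 (plus) for Igtp and chr11:58214727-58214976 (plus) for Irgm2. The Irgm2 window lies inside the gene span given above, which begins at 58199618, and past the end of Igtp at 58207591. RefSeq thus places this start of Irgm2 later than the start of that span.
Gbp2: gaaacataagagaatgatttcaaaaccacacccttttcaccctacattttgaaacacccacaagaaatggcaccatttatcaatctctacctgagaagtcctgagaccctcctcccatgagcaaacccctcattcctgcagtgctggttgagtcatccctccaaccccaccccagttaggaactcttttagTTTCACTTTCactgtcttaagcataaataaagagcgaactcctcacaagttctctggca
Gbp3: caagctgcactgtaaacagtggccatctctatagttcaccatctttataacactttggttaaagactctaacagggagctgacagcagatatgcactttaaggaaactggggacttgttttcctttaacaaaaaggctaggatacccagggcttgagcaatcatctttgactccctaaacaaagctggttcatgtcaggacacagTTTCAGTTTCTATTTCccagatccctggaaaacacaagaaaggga
Irgm1: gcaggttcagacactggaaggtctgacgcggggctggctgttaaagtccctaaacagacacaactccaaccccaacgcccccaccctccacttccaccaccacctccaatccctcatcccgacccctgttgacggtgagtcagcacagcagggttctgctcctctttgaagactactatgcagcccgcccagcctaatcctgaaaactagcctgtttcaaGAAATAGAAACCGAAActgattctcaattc
Igtp: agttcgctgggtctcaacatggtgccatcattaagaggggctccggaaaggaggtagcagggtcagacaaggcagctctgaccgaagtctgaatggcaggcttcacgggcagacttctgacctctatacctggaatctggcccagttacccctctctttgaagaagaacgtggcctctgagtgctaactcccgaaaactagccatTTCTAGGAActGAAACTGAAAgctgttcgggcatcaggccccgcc
Irgm2: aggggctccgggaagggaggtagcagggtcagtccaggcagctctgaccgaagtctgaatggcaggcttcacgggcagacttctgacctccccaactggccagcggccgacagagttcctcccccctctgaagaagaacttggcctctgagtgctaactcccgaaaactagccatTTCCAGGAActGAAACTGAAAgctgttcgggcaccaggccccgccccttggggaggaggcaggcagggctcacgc

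In Gbp2 the ISRE match begins 59 bases before the start and is read on the opposite strand (TTTCACTTTC). Gbp3 has 2 overlapping matches, TTTCAGTTTC and TTTCTATTTC, and Irgm1 has 2 overlapping matches as well, GAAATAGAAA and GAAACCGAAA. Igtp and Irgm2 each carry a GAS match followed by the same ISRE match, GAAACTGAAA. Within the 250 bases before the start they share an unbroken run of 55 bases that lies outside these matches. The 50 bases after the start were not searched for shared runs. The second annotated start of Gbp3 held neither motif.

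**Figure D1:**
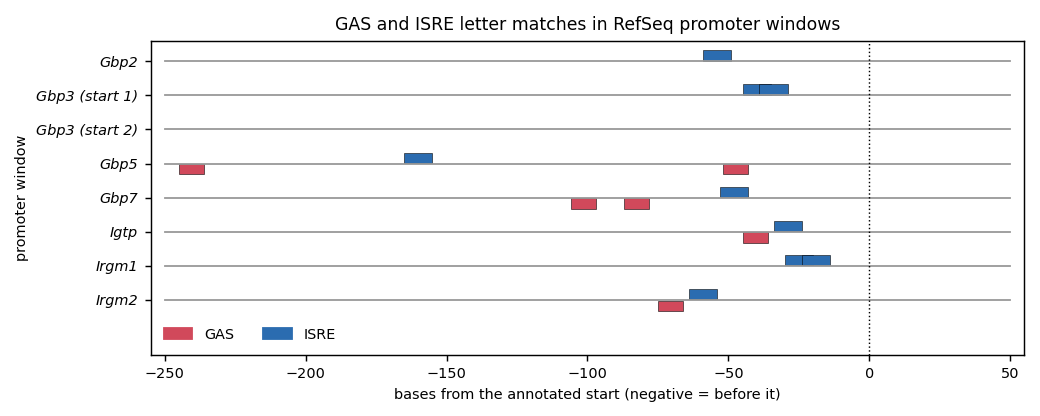
Positions of GAS (red) and ISRE (blue) letter matches in the 8 searched RefSeq promoter windows, with 1 line per window. The horizontal axis gives the distance from the annotated start in bases. ISRE matches lie before the start in 7 of the 8 windows, and 4 windows also hold GAS.

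Libraries of liver held 9.03 to 16.61, those of kidney 8.69 to 23.19 and those of quadriceps 13.25 to 19.7 times 1000000 counts. Gene levels are counts per 1000000 counts (CPM). Group values are the mean ± SD of n = 3 libraries, and values of single libraries follow the order of replicates 1, 2 and 3. Changes are log2 fold changes ± SE from edgeR's quasi-likelihood test, with p-values adjusted over all genes tested in a tissue and a threshold of 0.05. Tissue identity was checked with defining markers: the kidney gene Umod was at 3381 CPM or more in kidney and at most 1.50 in the other tissues, and the muscle gene Acta1 was at most 3.31 outside quadriceps. Some libraries stood apart in their summed levels of cell type markers. Old female 3 of quadriceps had 1183 CPM of 18 macrophage markers, beside 132 and 105 in old females 1 and 2. In liver, corylin male 3 had 5545 CPM of them and corylin male 2 had 422. By library name, corylin male 2 of liver is the animal numbered corylin male 1 in kidney and quadriceps. Old female 2 of kidney had 2257 CPM of 8 adipocyte markers, beside 1082 and 442. Library names carry a letter whose meaning is not given: all young libraries are B, and replicate 3 of each old and corylin group is R.

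Compared per unit of length with the authors' TPM values, the order of the 10 genes differed between tissues. Kidney had the highest mean TPM for Igtp (46.8, range 17 to 179 over 18 libraries), Gbp3 (37.8, 4.26 to 183) and Irgm1 (36.4). Liver was led by the effector Iigp1 (131, range 72.8 to 216 over 17 libraries) and Igtp (101, 31.6 to 295), and Irgm2 followed at 58.0. In quadriceps Irgm2 (26.9) and Igtp (26.0) came first, with Irgm1 at 10.6 and Gbp2 at 10.2. Gbp5 and Gbp6 were the least abundant in all 3 tissues, at 1.64 to 2.75 mean TPM. Neighbours in each order had overlapping ranges. Iigp1 stood out in its spread between tissues, from 6.59 mean TPM in quadriceps and 11 in kidney to 131 in liver.

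In kidney of old females, 9 of the 10 GTPase genes rose relative to young females, with Gbp9 the exception. Over all genes tested in that comparison 7.69% passed in the same direction. Gbp3 showed the largest change. Its level was 35.8, 32.3 and 36.3 CPM in the young females and 177, 243 and 66.2 CPM in the old ones. Every old female lay above every young female, and the old females differed among themselves by more than the young ones did. The change was 2.22 ± 0.45 (edgeR adjusted p = 0.00474), from 34.8 ± 2.19 to 162 ± 89.2 CPM. Gbp2, which coats parasite vacuoles, stood at 12.1, 13 and 11 CPM in young and 27.7, 36.9 and 32.8 CPM in old females, groups that were well separated (1.43 ± 0.38, edgeR adjusted p = 0.021).

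The regulators rose in the same kidneys. Irgm1 was at 54.6, 62.6 and 51.8 CPM in young females and at 110, 189 and 108 CPM in old females. All 3 old libraries were above the young ones, with old female 2 the highest (1.27 ± 0.23, edgeR adjusted p = 0.00183). Irgm2 had the tightest old group, at 57.7, 64.1 and 60 CPM against 27.1, 27.3 and 22.8 CPM (1.24 ± 0.24, adjusted p = 0.00324). Igtp was at 25.9, 17.3 and 16.9 CPM in young and 52.3, 147 and 46.1 CPM in old females. Old female 2 was far above old females 1 and 3, and the groups did not overlap (2.03 ± 0.45, edgeR adjusted p = 0.0082). Without old female 2 the change was 1.30 (edgeR adjusted p = 0.063). The effector Iigp1 (ENSMUSG00000054072, chr18:60376027-60392634, plus strand) went from 16.3, 14.9 and 10.6 CPM to 38, 48.3 and 49.2 CPM (1.70 ± 0.45, edgeR adjusted p = 0.0228).

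The less abundant guanylate-binding proteins followed. Gbp5, a promoter of the NLRP3 inflammasome, rose from 3.93 ± 1.22 to 9.31 ± 3.67 CPM (1.25 ± 0.37, edgeR adjusted p = 0.0372). Gbp6 rose from 3.5 ± 0.833 to 11.3 ± 5.09 CPM (1.69 ± 0.51, 0.0422), and Gbp7 from 15.4 ± 2.86 to 31.9 ± 8.21 CPM (1.05 ± 0.29, 0.0262). Gbp9 was at 13.7, 13.7 and 11.3 CPM in young and 20.5, 9.88 and 29.8 CPM in old females. Its groups overlapped and it did not pass (0.64 ± 0.34, edgeR adjusted p = 0.265). The libraries did not overlap for 9 of the 10 genes, against 13% of all genes with old above young. Leaving out each of the 6 libraries in turn left between 4 and 7 called genes (6, 5 and 4 for young females 1, 2 and 3, then 7, 5 and 5 for old females 1, 2 and 3). Gbp3, Irgm1 and Irgm2 were called in all 6 of these fits. Among libraries of letter B alone 7 of the 10 rose, with 1228 of 17341 genes in all, and Gbp5 and Gbp7 did not pass.

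**Figure D2:**
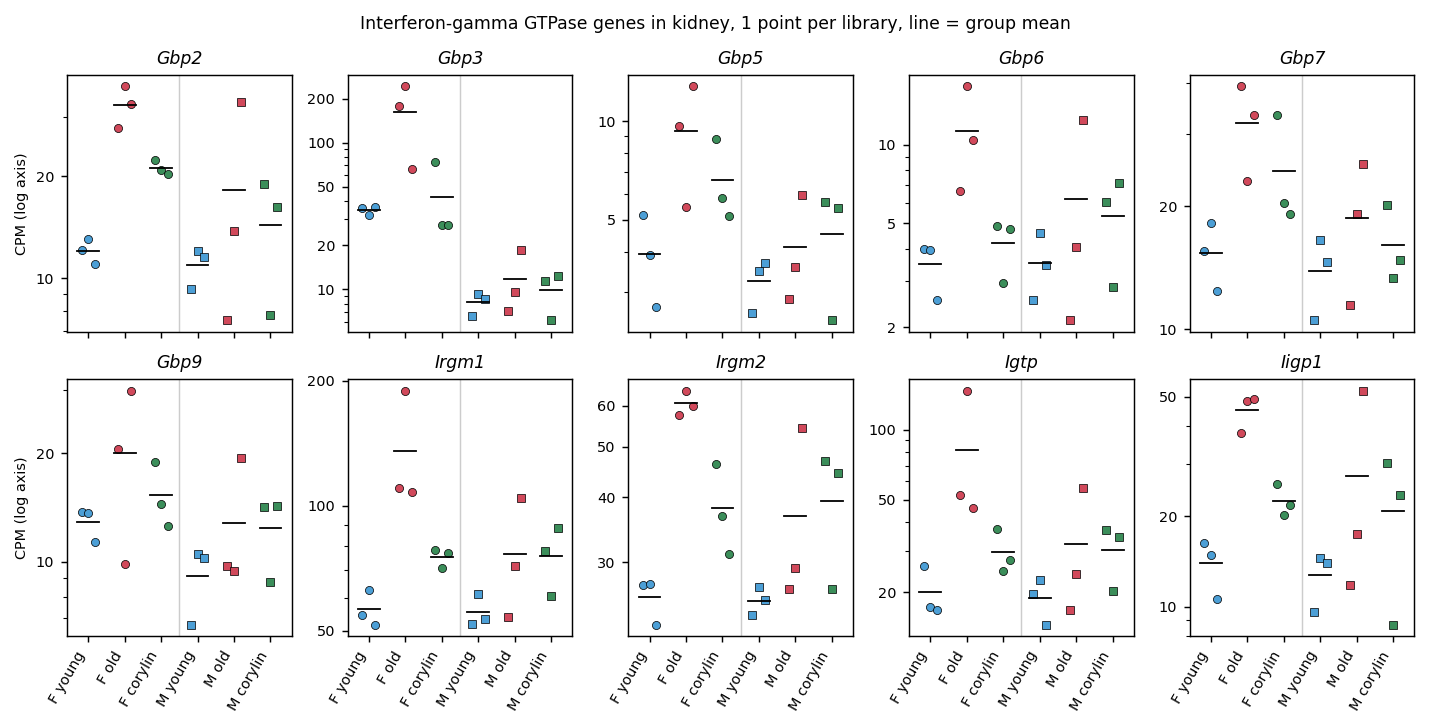
CPM of the 10 genes in kidney on log axes, 1 point per library and 1 panel per gene, for young, old and corylin females (circles) and males (squares), with a line at the group mean. The 3 old females lie above the 3 young females in every panel except Gbp9, and old male 3 is above the other old males in every panel.

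In male kidney 0 of the 10 genes passed with age, where 0.0815% of all genes rose. All 10 log2 fold changes were above 0, from 0.35 to 1.10, and 2 genes had an unadjusted p under 0.05, as did 10.9% of all genes. DESeq2 and limma voom also called 0. Iigp1 had the smallest p, at 9.62, 14.6 and 13.9 CPM in young males and 11.8, 17.4 and 52.5 CPM in old males. Only old male 3 was well above the young males (1.10 ± 0.45, edgeR adjusted p = 0.366). The same library was the highest of the old males for all 10 genes. Irgm1, for example, was at 53.9, 71.7 and 104 CPM in old males, beside 51.8, 61.4 and 53.5 CPM in young males.

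The difference of the age change between the sexes passed for 0 of the 10 genes in kidney (edgeR, against 0.0932% of all genes; DESeq2 and limma voom 0). Females had the larger change for all 10, by 0.15 to 1.68, and 2 genes had an unadjusted p under 0.05, beside 14.5% of all genes. The largest difference was that of Gbp3 (1.68 ± 0.65, edgeR adjusted p = 0.263). Averaged over the sexes, 8 genes rose with age, where 6.64% of all genes rose. Igtp (1.40 ± 0.32), Iigp1 (1.40 ± 0.32) and Gbp3 (1.38 ± 0.33) changed most, followed by Gbp6 (1.25 ± 0.36), Gbp2 (1.08 ± 0.27), Irgm2 (0.89 ± 0.17), Irgm1 (0.87 ± 0.16) and Gbp7 (0.74 ± 0.20). Their edgeR adjusted p-values were 0.00231 to 0.0377, and Gbp5 (0.80, 0.0723) and Gbp9 (0.56, 0.186) did not pass. Among young mice Gbp3 alone differed between the sexes. It was at 34.8 ± 2.19 CPM in young females and 8.15 ± 1.41 CPM in young males, without overlap (2.09 ± 0.47, edgeR adjusted p = 0.013; 2.37% of all genes were higher in females). This call was lost in 1 of 6 fits that left out a library, the one without young male 1.

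Corylin-fed females had lower kidney levels than old females for all 10 genes, by 0.39 to 1.91 on the log2 scale, but 0 of them passed (edgeR, where 0.0582% of all genes passed in either direction and 0.0408% were lower). This comparison and the comparison of old with young females share the same old libraries. Gbp3 was at 73.4, 27.5 and 27.4 CPM in corylin females, against 177, 243 and 66.2 CPM in old females. Corylin female 1 was above the lowest old female, and the other corylin females were below all old ones (-1.91 ± 0.45, edgeR adjusted p = 0.118). Irgm1 was at 78.4, 70.6 and 77 CPM against 110, 189 and 108 CPM in old females, without overlap (-0.85 ± 0.23, adjusted p = 0.157). Iigp1, at 25.6, 20.2 and 21.9 CPM against 38, 48.3 and 49.2 CPM, did not overlap either (-1.0 ± 0.44, edgeR adjusted p = 0.385).

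In that comparison 6 genes had corylin libraries entirely below old ones (Gbp2, Gbp6, Igtp, Irgm1, Irgm2 and Iigp1), against 6.41% of all genes. An unadjusted p under 0.05 was reached by 6 genes and by 12% of all genes. DESeq2 called 3 lower (Gbp3, Irgm1 and Igtp), where it called 0.955% of all genes lower, and limma voom called 0. In the authors' deposited table, Gbp3 (-1.70, adjusted p = 0.00407) and Irgm1 were listed as lower in corylin than in old females. There 1.27% of genes with an adjusted p passed in either direction. The deposited fold changes are not on the scale of those from edgeR: Gbp2, for example, is at -0.038 there and -0.62 by edgeR. Without old female 3, Gbp3 passed at -2.28 (edgeR adjusted p = 0.024), and a fit without corylin female 1 also had 1 called gene. Without old female 2 the change of Igtp was -0.71 instead of -1.44.

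In males, corylin and old kidneys differed for 0 of the 10 genes (edgeR, against 0.0699% of all genes; DESeq2 and limma voom 0). The log2 fold changes lay between -0.39 and 0.13, and 0 genes had an unadjusted p under 0.05, beside 7.25% of all genes. Gbp2 had the smallest p, at 19, 7.79 and 16.2 CPM in corylin males and 7.51, 13.8 and 33.2 CPM in old males, groups that overlapped widely (-0.34 ± 0.38, edgeR adjusted p = 0.907). Its change came to 0.43 without old male 3 and to 0.34 among libraries of letter B. The corylin effect did not differ between the sexes for any of the 10 by edgeR, DESeq2 or limma voom (0 called; 0.00582% of all genes by edgeR). Of the 10, 4 had an unadjusted p under 0.05, beside 9.95% of all genes, and the smallest p was that of Irgm1 (-0.83 ± 0.32, edgeR adjusted p = 0.441).

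In liver, Gbp3 and Gbp2 rose in old females, 2 of the 10 genes, where 5.54% of all genes rose. Gbp3 was at 13.5, 5.6 and 4.6 CPM in young and 39.2, 29.1 and 33.1 CPM in old females. Gbp2 was at 9.95, 6.51 and 4.92 CPM in young and 23.7, 27.4 and 20.2 CPM in old females. For both genes the groups were far apart, with young female 1 the highest of the young (Gbp3 2.10 ± 0.49, edgeR adjusted p = 0.0234; Gbp2 1.74 ± 0.48, 0.0403). The other 8 genes had changes of 0.31 to 1.72. Libraries did not overlap for 6 of the 10 genes, beside 18.5% of all genes. The number called fell to 0 without young female 2 or 3 or old female 1 or 2, and was 4 without old female 3. The calls of Gbp3 were lost in 4 and those of Gbp2 in 5 of the 6 fits. DESeq2 called 5 genes, as did a fit of the young and old females alone, where 1523 of 15158 and 1406 of 13540 genes rose in all. Limma voom called Gbp3 alone, with 400 of 15158 genes in all, and libraries of letter B gave 6, with 2029 of 15514.

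In male liver the age changes ran from 0.44 to 2.35, and 0 of the 10 genes passed (edgeR, where 0.152% of all genes rose). Gbp3 came closest, at 3.64, 2.22 and 2.99 CPM in young and 6.55, 14.4 and 24.7 CPM in old males. The old males spread widely but all lay above the young ones (2.35 ± 0.54, edgeR adjusted p = 0.079). Gbp2 was at 4.4, 3.04 and 2.82 CPM in young and 11.8, 10.8 and 14.5 CPM in old males (1.85 ± 0.52, adjusted p = 0.104). The old males were above the young for 9 of the 10 genes, all but Gbp7, against 15.2% of all genes, and 8 had an unadjusted p under 0.05, against 19.5%. DESeq2 called Gbp3 and Gbp2, where it called 4.29% of all genes higher, and limma voom called 0. A fit of the young and old males alone called 5 of the 10, and 836 of 13291 genes rose in it.

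The age change differed between the sexes in liver for 0 of the 10 genes (edgeR, DESeq2 and limma voom; 0% of all genes by edgeR). None of the 10 had an unadjusted p under 0.05 for this difference, beside 8.62% of all genes, and the differences ran from -0.37 to 0.32. Averaged over the sexes 8 of the 10 rose, where 10.9% of all genes rose. The guanylate-binding proteins led with Gbp3 (2.23 ± 0.36), Gbp2 (1.79 ± 0.36), Gbp5 (1.57 ± 0.43), Gbp9 (1.48 ± 0.41), Gbp6 (1.30 ± 0.35) and Gbp7 (1.15 ± 0.29), and Igtp (0.81 ± 0.23) and Irgm2 (0.60 ± 0.20) followed, at edgeR adjusted p-values of 0.00348 to 0.0465. The count was 3 without young female 2 or 3 and 4 without young male 2 or 3 or old male 3. Iigp1 (0.54 ± 0.19, edgeR adjusted p = 0.0583) and Irgm1 (0.42 ± 0.17, 0.0963) did not. Iigp1, already the most abundant of the 10 in liver, was at 263, 191 and 180 CPM in young females and 337, 427 and 221 CPM in old females. The groups overlapped. Between young females and young males 0 of the 10 differed (edgeR, beside 1.28% of all genes; DESeq2 and limma voom 0), and 1 had an unadjusted p under 0.05, beside 9.58%.

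Corylin-fed females did not have lower liver levels than old females. All 10 log2 fold changes were above 0, from 0.15 to 1.01, and 0 genes passed (edgeR, beside 0.152% of all genes; DESeq2 and limma voom 0). Gbp2 was at 52.2, 24 and 55.4 CPM in corylin females and 23.7, 27.4 and 20.2 CPM in old females. Corylin females 1 and 3 were above every old female and corylin female 2 was among them (0.88 ± 0.46, edgeR adjusted p = 0.376). Igtp was at 235, 95.6 and 121 CPM against 89.7, 128 and 87.9 CPM, and only corylin female 1 was clearly above the old range (0.57 ± 0.32, adjusted p = 0.422). Gbp6 had the smallest p (1.01 ± 0.46, edgeR adjusted p = 0.303) and was the only gene of the 10 with an unadjusted p under 0.05, as 15.8% of all genes had.

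In male liver the corylin group had 2 libraries that lay far apart, so little can be read from its means. Gbp2 was at 6.81 CPM in corylin male 2 and 37 CPM in corylin male 3, beside 11.8, 10.8 and 14.5 CPM in old males. Of the 10 genes 0 passed (edgeR, beside 0.0594% of all genes; DESeq2 and limma voom 0), and 0 had an unadjusted p under 0.05, beside 10.7%. The changes ran from -0.03 to 1.02, and that of Gbp5 (1.02 ± 0.60) came to -0.77 without corylin male 3. Without corylin male 2, 1 gene passed, but that fit has corylin male 3 as its only corylin library, and takes its spread from the other groups. The corylin effect differed between the sexes for 0 of the 10 genes (edgeR, DESeq2 and limma voom; 0% of all genes by edgeR), with 0 at an unadjusted p under 0.05, beside 6.81%.

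**Figure D3:**
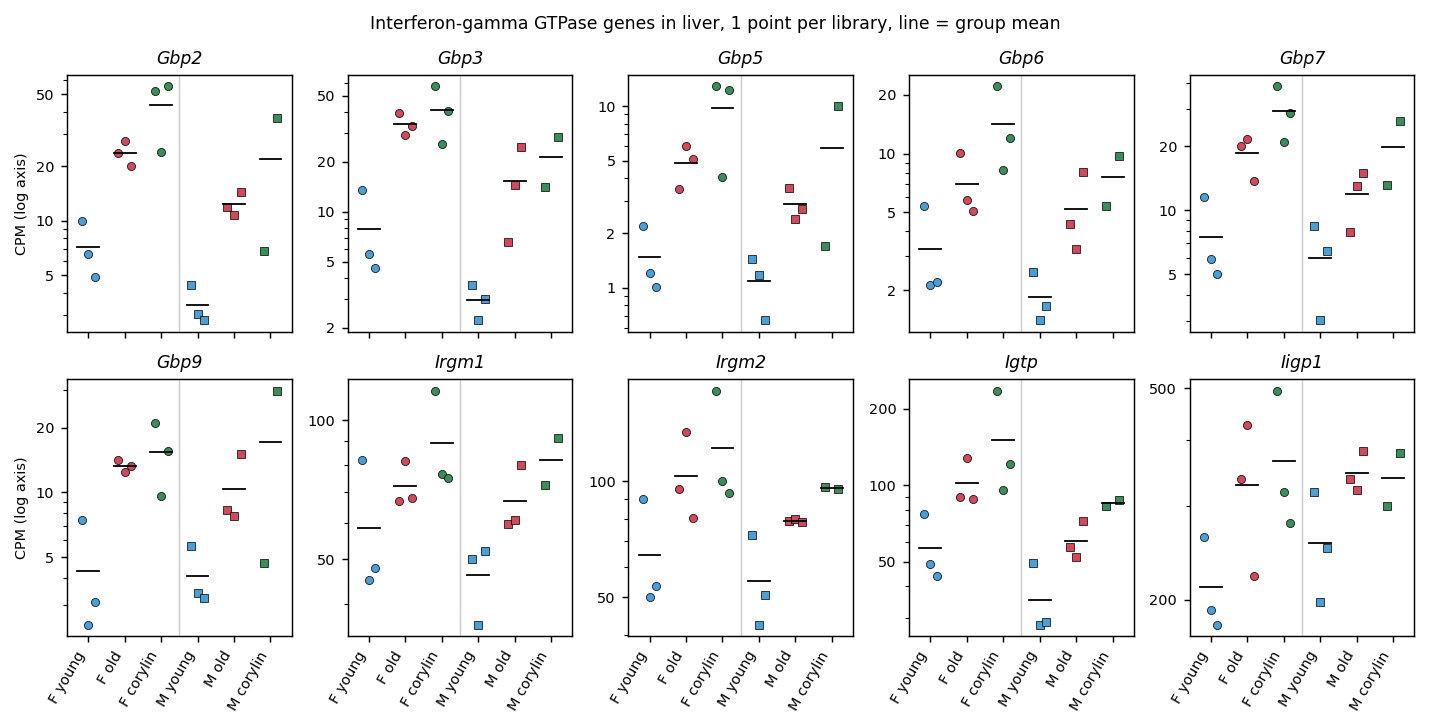
CPM of the 10 genes in liver on log axes, 1 point per library and 1 panel per gene, for young, old and corylin females (circles) and males (squares), with a line at the group mean. The male corylin group has 2 points, of which corylin male 3 is the higher for 9 genes.

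In quadriceps 6 of the 10 genes rose in old females (Gbp2, Gbp3, Gbp7, Igtp, Irgm1 and Irgm2), where 4.5% of all genes rose. Gbp2 was at 6.91, 4.64 and 2.59 CPM in young and 14.1, 22.3 and 37.6 CPM in old females. Gbp3 was at 4.29, 2.64 and 1.88 CPM in young and 11.7, 11.1 and 23.9 CPM in old females. For both, each old female exceeded each young one and old female 3 was the highest (Gbp2 2.39 ± 0.41, edgeR adjusted p = 0.0161; Gbp3 2.40 ± 0.42, 0.0162). The regulator Irgm2 was again even among the old females, at 44.7, 48.2 and 43.1 CPM against 26.2, 22.4 and 21.1 CPM (0.96 ± 0.22, edgeR adjusted p = 0.0268). Igtp went from 10.7, 12 and 12.1 CPM to 20.8, 25.2 and 36.1 CPM (1.24 ± 0.31, 0.0316).

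Irgm1 was at 20.9, 15.9 and 18.7 CPM in young and 22.7, 28.2 and 50.9 CPM in old females, where old female 1 was barely above the young range (0.88 ± 0.24, edgeR adjusted p = 0.0402). Gbp7 rose from 5.35 ± 2.65 to 13.7 ± 3.58 CPM (1.36 ± 0.37, adjusted p = 0.0415). The 4 genes that did not pass had changes of 0.31 to 1.83, among them Iigp1 (1.83 ± 0.54, edgeR adjusted p = 0.0533). Libraries did not overlap for 8 of the 10 genes, beside 9.48% of all genes. Old female 3 is the library with high macrophage marker levels, and without it Gbp2 (1.96, edgeR adjusted p = 0.041) and Gbp3 (1.97, 0.041) remained the 2 called genes, while Irgm2 came to 1.01 (0.0665). Leaving out young females 1, 2 and 3 in turn gave 2, 0 and 2 calls, and leaving out old females 1 and 2 gave 7 and 5. Libraries of letter B alone gave 3 calls, where 99 of 14362 genes rose in all. A fit of the young and old females alone gave 0, where 1 of 13619 genes rose in all.

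In male quadriceps 0 of the 10 genes passed with age (edgeR, where 0% of all genes rose), and the changes ran from -0.43 to 0.80. Irgm2 was the exception in size. It was at 22.6, 23.5 and 21 CPM in young males and 35.4, 40.3 and 40.9 CPM in old males, groups that did not overlap (0.80 ± 0.22, edgeR adjusted p = 0.0977). It was the only one of the 10 with an unadjusted p under 0.05, beside 18.3% of all genes, and DESeq2 called it, where it called 2.19% of all genes higher. Limma voom called 0. Gbp2, in contrast, was at 4.36, 2.86 and 3.15 CPM in young and 3.71, 4.51 and 3.18 CPM in old males. Averaged over the sexes Gbp2 (1.26 ± 0.30), Gbp3 (1.36 ± 0.31) and Irgm2 (0.88 ± 0.15, edgeR adjusted p = 0.014) rose, 3 of the 10, where 1.98% of all genes rose. The count was 1 without old female 3, old male 2 or 3, young female 2 or young male 2 or 3, and 5 without old female 1.

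The difference between the sexes in the age change passed for 0 of the 10 in quadriceps by edgeR, where 0.226% of all genes passed. Gbp2 (2.25 ± 0.59, edgeR adjusted p = 0.0825) and Gbp3 (2.10 ± 0.61, 0.103) were larger in females. An unadjusted p under 0.05 was reached by 6 of the 10 and by 20.1% of all genes. DESeq2 called Gbp2 and Gbp3, where it called 2.74% of all genes higher, and limma voom called 0. By edgeR 1 and 2 genes passed without old female 1 or 2. Among young mice 0 of the 10 differed between the sexes (edgeR, beside 1.2% of all genes; DESeq2 and limma voom 0), with 0 at an unadjusted p under 0.05, beside 17.7%.

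Corylin-fed females had lower quadriceps levels than old females for all 10 genes, by 0.26 to 1.65, and 0 passed (edgeR, where 0% of all genes passed). Here too the old libraries are those of the age comparison. Gbp2 was at 13.3, 5.94 and 5.14 CPM in corylin females, against 14.1, 22.3 and 37.6 CPM in old females. Gbp3 was at 8.16, 3.41 and 3.25 CPM, against 11.7, 11.1 and 23.9 CPM. For these 2 genes every corylin female was below every old female, as for 7.96% of all genes, although corylin female 1 came close (Gbp3 -1.65 ± 0.41 and Gbp2 -1.60 ± 0.40, edgeR adjusted p = 0.119 for both). Of the 10 genes 5 had an unadjusted p under 0.05, beside 17.4% of all genes. DESeq2 called Gbp2 and Gbp3, where it called 2.63% of all genes lower, and limma voom called 0. In the authors' deposited table, Gbp2 (-1.37, adjusted p = 0.0113) and Gbp3 (-1.40, 0.012) were listed as lower, where 3.14% of genes passed in either direction. Without old female 3 the changes were -1.20 for Gbp3 and -1.16 for Gbp2 (edgeR adjusted p = 0.723), and 3 and 2 genes passed without old female 1 or 2.

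In male quadriceps levels were higher with corylin, without passing. All 10 changes were above 0, from 0.13 to 1.46, and 0 were called (edgeR, where 0% of all genes passed; DESeq2 and limma voom 0). Gbp2 was at 5.77, 6.48 and 7.25 CPM in corylin males, above the old males at 3.71, 4.51 and 3.18 CPM. Corylin males lay entirely above old males for 5 of the 10 genes (Gbp2, Gbp3, Gbp9, Irgm1 and Iigp1), beside 9.12% of all genes, and 3 had an unadjusted p under 0.05, beside 9.74%. The smallest p was that of Igtp (0.87 ± 0.30, edgeR adjusted p = 0.415). Corylin male 2 had the highest Iigp1, 33.5 CPM beside 11.1 and 12.3 CPM in the other corylin males.

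The estimated corylin changes of these genes in quadriceps were below 0 in females and above 0 in males, with 0 called in either sex by edgeR. The difference between the sexes passed for 0 of the 10 by edgeR, where 0% of all genes passed. It was -2.37 ± 0.58 for Gbp2 (edgeR adjusted p = 0.115) and -2.64 ± 0.75 for Iigp1 (0.119). An unadjusted p under 0.05 was reached by 6 of the 10, beside 19.7% of all genes. DESeq2 called 5 (Gbp2, Gbp3, Irgm1, Iigp1 and Igtp), where it called 3.48% of all genes lower, and limma voom called 0. By edgeR 3 and 2 genes passed without old female 1 or 2, and 0 without old female 3.

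**Figure D4:**
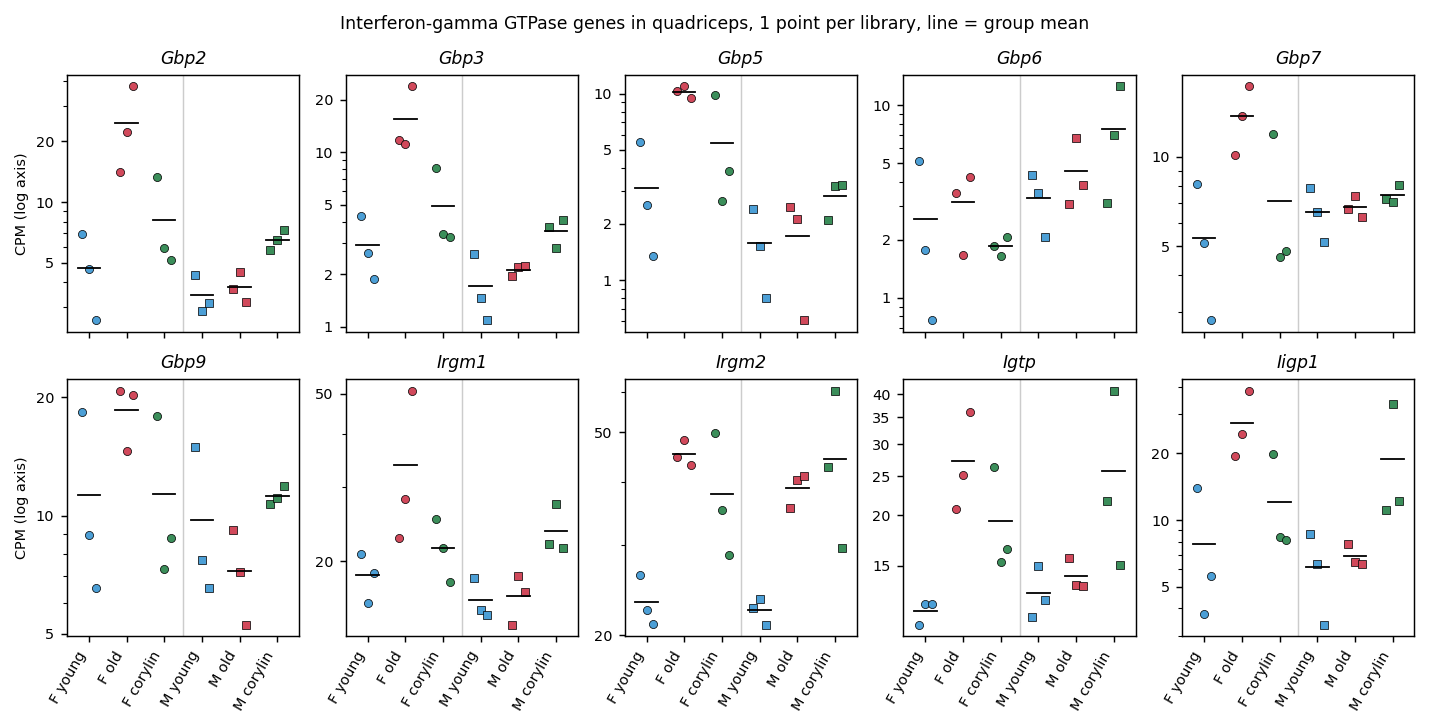
CPM of the 10 genes in quadriceps on log axes, 1 point per library and 1 panel per gene, for young, old and corylin females (circles) and males (squares), with a line at the group mean. Old females are above young females for 8 genes, and in males Irgm2 is the gene whose old libraries all lie above the young ones.

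**Figure D5:**
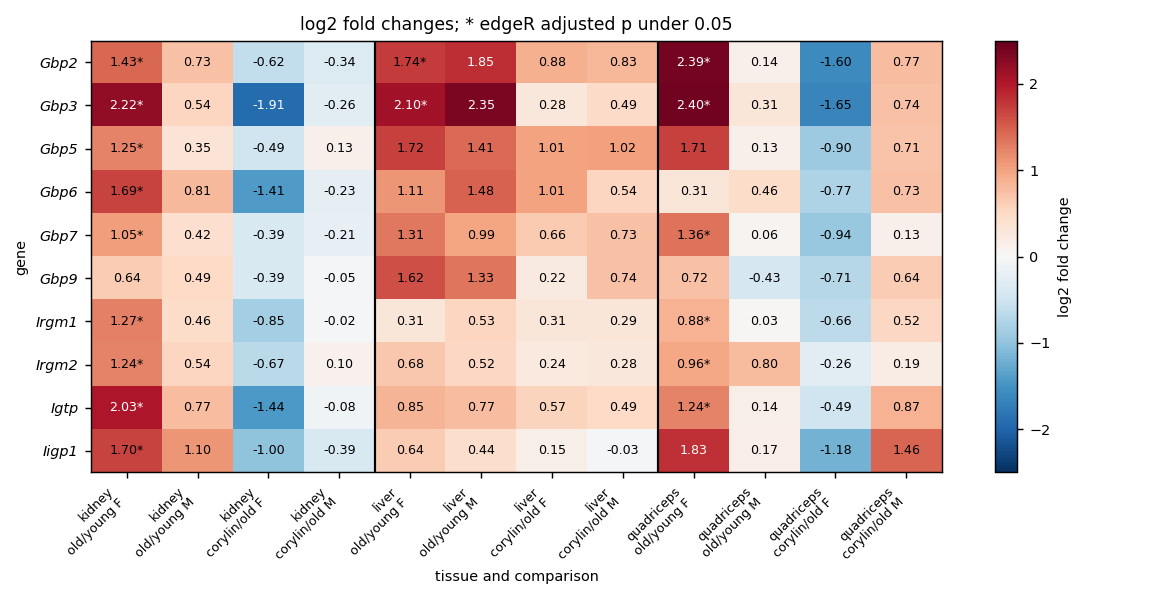
Log2 fold changes of the 10 genes (vertical axis) for old against young and corylin against old in each tissue and sex (horizontal axis), in color and numbers, with an asterisk where the edgeR adjusted p was under 0.05. Asterisks stand in the 3 columns of old against young females, 9 in kidney, 2 in liver and 6 in quadriceps, and in no other column.

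Differences of these effects between tissues were tested with the animal as a block, since 17 of the 18 animals gave all 3 tissues. For the age change averaged over sexes, 0 of the 10 genes passed between kidney and liver (edgeR, beside 1.86% of all genes), kidney and quadriceps (0.791%) or liver and quadriceps (1.26%). By limma voom these counts were also 0. The numbers with an unadjusted p under 0.05 were 4 of 10 (beside 15.4% of all genes), 0 (13.3%) and 2 (15.7%). The smallest p was that of Gbp9, whose age change was larger in liver than in quadriceps by 1.34 ± 0.36 (edgeR adjusted p = 0.0799).

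The corylin effect in females, lower than old in kidney and quadriceps and higher in liver, was compared between tissues in a test added after these values had been seen. It passed for 0 of the 10 between kidney and liver (edgeR, beside 0.0275% of all genes), kidney and quadriceps (0%) or liver and quadriceps (0.0529%), and limma voom also called 0. Between kidney and liver 9 of the 10 had an unadjusted p under 0.05 (beside 9.82% of all genes), with Igtp lower in kidney by 1.73 on the log2 scale (-1.73 ± 0.35, edgeR adjusted p = 0.116). Between liver and quadriceps 8 did (beside 13.3%), with Gbp2 at 2.31 ± 0.50 (edgeR adjusted p = 0.0991), and between kidney and quadriceps 0 did (8.23%). Libraries of letter B alone gave 2 calls between kidney and liver, Igtp among them (-2.07, edgeR adjusted p = 0.0317), and leaving out the animal of old female 3 also gave 2. Without the animal of corylin male 3, 1 gene passed in each of the kidney and liver and the liver and quadriceps comparisons.

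The rest of the pathway was read from lists of the ligand and receptor, signalling, inhibitor and target genes. By edgeR, 7.69% of all genes tested rose in old females in kidney, 5.54% in liver and 4.5% in quadriceps. These shares stand beside all counts of list genes that rose in old females below. The quadriceps counts include old female 3, which had high macrophage marker levels, and list genes were not read from fits without that library. Ifng itself, the ligand, was too low to test. Its counts were 0 to 4 in kidney libraries, 0 to 13 in liver libraries, with the highest in a corylin female, and 0 in all 18 quadriceps libraries, where a count of 0 allows up to 3 counts a library. The receptor chains rose in old female kidney: Ifngr1 by 1.04 ± 0.10 (edgeR adjusted p = 3.96e-05) and Ifngr2 by 0.65 ± 0.16 (0.0163). Il12rb1, a chain of the interleukin-12 receptor that drives interferon-gamma production, rose by 2.61 ± 0.61 (edgeR adjusted p = 0.0105), so 3 of 6 tested ligand and receptor genes rose and 0 fell. In corylin females Ifngr1 fell in kidney relative to old females (-0.70 ± 0.10, edgeR adjusted p = 0.00847). None of these genes passed in liver or quadriceps of old females (0 of 6 and 0 of 5, edgeR).

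The signalling genes were next. In kidney, 9 of 10 tested rose in old females and 0 fell (median log2 fold change 1.08, beside 0.00 over all genes), among them Irf1 (1.02 ± 0.17, edgeR adjusted p = 0.00103) and Nlrc5, the activator of MHC class I genes (1.86 ± 0.25, 0.000309). The kinase gene Jak1 did not (0.09 ± 0.11, edgeR adjusted p = 0.653). In quadriceps 5 of 9 rose (median 1.30), with Stat2 at 2.27 ± 0.44 (edgeR adjusted p = 0.024) and Irf1 at 1.17 ± 0.27 (0.0272). In liver Irf1 alone rose, 1 of 10 (0.72 ± 0.19, edgeR adjusted p = 0.0317; median 0.50). The inhibitor gene Socs3, which is also induced by other cytokines, rose in old females in kidney (2.73 ± 0.37, edgeR adjusted p = 0.000301), liver (2.23 ± 0.39, 0.00822) and quadriceps (4.47 ± 0.53, 0.00615). It was the only one of 7 inhibitors called in kidney and in liver, and Ptpn6, a phosphatase of blood cells, was the other of 2 called in quadriceps.

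Other interferon-gamma targets rose in old females in 14 of 18 tested cases in kidney (median 1.37), 8 of 18 in liver (0.92) and 7 of 16 in quadriceps (1.23), and 0 fell. For comparison, the medians of the 10 GTPase genes were 1.35, 1.21 and 1.30. In kidney the invariant chain gene Cd74 rose by 1.79 ± 0.27 (edgeR adjusted p = 0.000573) and the MHC class I light chain gene B2m by 1.65 ± 0.26 (0.000683). The immunoproteasome gene Psmb8 rose in liver (1.31 ± 0.32, edgeR adjusted p = 0.0261) and in quadriceps (2.04 ± 0.42, 0.0245). Other GTPases of the same families rose in 9 of 14 cases in kidney, 1 of 15 in liver and 5 of 11 in quadriceps. Of all genes, 7.69%, 5.54% and 4.5% rose there, and the liver count of 1 gene was near that share. In liver that gene was Gvin1, a very large interferon-inducible GTPase (2.60 ± 0.50, edgeR adjusted p = 0.0104). Among genes whose proteins act with these GTPases, in autophagy or the inflammasome, 6 of 16 rose and 1 fell in kidney. The caspase genes Casp4 (1.80 ± 0.35, edgeR adjusted p = 0.00304) and Casp1 (1.18 ± 0.26, 0.00681) and the pore-forming gasdermin gene Gsdmd (1.11 ± 0.16, 0.000501) were among those that rose. The same 3 genes rose in liver and quadriceps of old females, and autophagy genes such as Atg3 (-0.01 ± 0.13, edgeR adjusted p = 0.971) and Atg7 (0.03 ± 0.13, 0.902) did not pass in kidney.

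In corylin females compared with old females, 0 of the 18 targets passed in kidney, where 0.0582% of all genes passed in either direction (edgeR). All 18 were below 0 there (median -0.71), and the medians of targets were 0.36 in liver and -0.93 in quadriceps. The 10 GTPase genes had medians of -0.76, 0.44 and -0.83 in the same comparisons. In old against young males 0 targets and 0 signalling genes passed in any tissue. Few of all genes did: 0.0815% rose in kidney, 0.152% in liver and 0% in quadriceps (edgeR). The medians of the 10 GTPase genes in males were 0.54 in kidney, 1.16 in liver and 0.14 in quadriceps.

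Markers of other cell types were counted in the same comparisons, where 7.69% of all genes rose in kidney, 5.54% in liver and 4.5% in quadriceps of old females. Macrophage markers rose in old females in 16 of 16 tested cases in kidney (median 2.62), 12 of 18 in liver (2.35) and 12 of 12 in quadriceps (3.50). In quadriceps the old females were uneven, with old female 3 far above old females 1 and 2, as given above. The summed level of macrophage markers in kidney was 201 to 327 CPM in young, 956 to 1310 CPM in old and 417 to 650 CPM in corylin females. In male kidney it was 167 to 230 CPM in young and 348 to 460 CPM in old mice. In liver it was 367 to 559 CPM in young, 1792 to 2983 CPM in old and 1871 to 2452 CPM in corylin females. T and natural killer cell markers rose in 7 of 18 tested cases in old female kidney and 3 of 19 in liver. Their summed level in liver was 13.3 to 18.7 CPM in young, 42.2 to 58.2 CPM in old and 69.5 to 122 CPM in corylin females. In quadriceps 0 of the 20 T and natural killer cell markers were abundant enough to test, and their sum was at most 5.89 CPM in any library. Between 2 and 18 of them were at 0 in a library. Neutrophil markers rose in 3 of 4, 7 of 7 and 3 of 3 tested cases in kidney, liver and quadriceps. Their sum in quadriceps was also far higher in old female 3 than in old females 1 and 2. B and plasma cell markers rose in 0 of 8, 0 of 8 and 1 of 3, and endothelial markers in 0 of 8, 1 of 8 and 0 of 8. The part of these cells in the results was not tested.

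Genes induced mainly by type I interferon rose in old females in 19 of 23 tested cases in kidney, 6 of 23 in liver and 18 of 21 in quadriceps. Of all genes tested, 7.69%, 5.54% and 4.5% rose in these tissues. Oas2, an antiviral synthetase, rose by 3.24 ± 0.49 in kidney (edgeR adjusted p = 0.000575), and Rsad2 did not (-0.11 ± 0.19, 0.758). In quadriceps their sum was 101, 67.4 and 978 CPM in old females 1, 2 and 3, beside 27.1 to 71.8 CPM in young females. Old female 3 was thus far above the others, and its neutrophil markers summed to 148 CPM, beside 5.94 and 3.77 CPM. Old female 2 of kidney, which had the highest Gbp3, Igtp and Irgm1, also had the highest adipocyte marker sum, and adipocyte markers rose in 2 of 6 tested cases in old female kidney, in 0 of 4 in liver and in 0 of 8 in quadriceps, where 1 fell. The part of these genes and cells in the results was not tested.

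Correlations between the 10 genes were described across libraries. Pearson's r between pairs of them, over log2 CPM of all libraries of a tissue and as a description only, had a median of 0.88 in liver (0.63 to 0.97, 45 pairs, 17 libraries), 0.82 in kidney (0.42 to 0.96, 18 libraries) and 0.70 in quadriceps (0.05 to 0.97, 18 libraries). These values hold the differences between the age, sex and diet groups, and overlapping genes may share reads. Over deviations from the group means the medians were 0.71 in liver (0.37 to 0.93), 0.70 in kidney (0.03 to 0.97) and 0.55 in quadriceps (-0.14 to 0.93). The genes outside the 10 whose log2 CPM followed their mean most closely were, in liver, the related GTPase gene Tgtp1 (r = 0.970), Psmb8 (0.966), Cd274, which encodes the checkpoint ligand PD-L1 (0.962), Plcb2 (0.961) and the nucleic acid sensor gene Zbp1 (0.957). In kidney they were Gbp4 (r = 0.964), Epsti1 (0.958), Usp18 (0.944), Xaf1 (0.942) and the RNA sensor gene Ifih1 (0.942). In quadriceps they were Irf1 (r = 0.925), Cd274 (0.916), AW112010 (0.909), the peptide transporter gene Tap1 (0.896) and Gvin1 (0.892). Cd274 was thus among the closest 5 in both liver and quadriceps.

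Ranked by the mean log2 CPM of the 10 genes, the 3 old females held ranks 1, 2 and 3 of 18 in kidney and again in quadriceps. In liver they held ranks 4, 5 and 7 of 17, below corylin female 1, corylin female 3 and corylin male 3. In kidney old male 3 came next at rank 4, and old males 2 and 1 were at ranks 12 and 17. Corylin female 1 was the highest of the corylin females in all 3 tissues, at rank 5 in kidney, 1 in liver and 4 in quadriceps.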

How the data were processed

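Liver, kidney and quadriceps RNA (TruSeq Stranded mRNA libraries, per the labels' protocols) was analysed in 53 libraries of 54 samples. The submitters' processing notes name fastp 0.20.0, FastQC 0.11.9, HISAT2 2.1.0, featureCounts 2.0.1 and GRCm38/mm10. The strand setting is not given in the sources used here, nor is the annotation release. The authors deposited raw counts per gene, TPM values, which were used only to compare levels between genes, and their own log2 fold changes with adjusted p-values, none of which entered the tests. The number of per-sample columns left without a sample was 0.

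Genes were filtered with filterByExpr (minimum count 10, minimum total 15) and tested with edgeR 4.0.16 under R 4.3.3, in 1 quasi-likelihood fit per tissue over 6 groups with TMM scaling. Liver kept 15158 genes, kidney 17174 and quadriceps 14173. P-values were adjusted by Benjamini-Hochberg over all genes of a tissue, with a threshold of 0.05. Log2 CPM used a prior count of 2. Differences of effects between tissues were fitted with a block per animal. Alternatives were RLE scaling, DESeq2 1.42.0, limma voom (limma 3.58.1), no filter, only the groups compared, a replicate block, the library letter as a covariate, libraries of letter B alone (added after the data were seen) and leaving out each library. Scripts were tested on simulated data. P-values within a tissue set group differences against the spread between animals, estimated over all 6 groups in the main fit. Those between tissues use differences between tissues of the same animals. Replicate 3 of each old and corylin group shares the library letter R.

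The 10 genes and all gene lists were chosen with earlier results of these data known. Of the other lists, genes of the receptor and signalling lists could be named, and otherwise up to 4 called genes with the smallest adjusted p and up to 2 with the largest p. The closest 5 genes by Pearson's r left out predicted genes. Promoters of Gbp6, Gbp9 and Iigp1 were not searched for motifs. Iigp1 was left out by choice before the search, so its absence does not show that it lacked a window.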

Additional observations from a re-analysis of the deposited data

How the results depend on the processing

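How depth limits these results was not tested. Single genes were followed where called, for all 10 genes in 5 comparisons, and otherwise only for the gene with the smallest p. Under RLE scaling all 91 of these single-gene results kept their direction and side of the threshold. With 3 libraries a group, counts of called genes moved with the settings, and the cause was not tested. Counts over all genes are not given here for fits that left out a library or an animal or for settings of the between-tissue tests. Those of DESeq2 for corylin and for the sex differences stand above. In old against young female liver (2 called), DESeq2, only the groups compared and the replicate block gave 5, limma voom 1, no filter 0, letter B alone 6, and leaving out a library 0 to 4. Of all genes, 840 of 15158 rose in the main fit, 1053 of 15158 with the replicate block and 454 of 27268 with no filter. In male liver (0) DESeq2 gave 2, only the groups compared 5, letter B 1, and leaving out a library 0 to 1. All genes that rose there were 651 of 15158, 836 of 13291 and 595 of 15514 in the first 3 of these settings. Averaged over the sexes, liver (8) gave 5 with limma voom and with no filter and 3 to 10 leaving out a library. All genes that rose were 795 of 15158 with limma voom and 1324 of 27268 with no filter. Old against young female kidney (9) gave 4 with no filter, where 1211 of 31024 genes rose in all, and 4 to 7 leaving out a library. Kidney averaged over the sexes (8) gave 2 with no filter, 5 with the letter as a covariate, 4 with letter B and 6 to 9 leaving out a library. All genes that rose were 1085 of 31024 with no filter, 1130 of 17174 with the letter and 889 of 17341 with letter B. Young female against young male kidney (1) gave 0 with no filter, where 351 of 31024 genes were higher in females, and 0 to 1 leaving out a library. Old against young female quadriceps (6) gave 0 with only the groups compared, where 1 of 13619 genes rose in all. It gave 3 with the letter as a covariate and with letter B, and 0 to 7 leaving out a library. All genes that rose were 55 of 14173 with the letter and 99 of 14362 with letter B. Male quadriceps (0) gave 1 with DESeq2 and with only the groups compared, where 311 of 14173 and 301 of 13259 genes rose in all. Quadriceps averaged over the sexes (3) gave 1 with limma voom, only the groups compared, the letter as a covariate and letter B, and 1 to 5 leaving out a library. In the same order of settings, all genes that rose were 124 of 14173, 23 of 14022, 34 of 14173 and 34 of 14362. Corylin against old females (0) gave 3 with DESeq2 in kidney and 2 in quadriceps, and leaving out a library gave 0 to 1 in kidney and 0 to 3 in quadriceps, with 0 to 1 in male liver. The sex differences in quadriceps (0) gave 2 for age and 5 for corylin with DESeq2, and 0 to 2 and 0 to 3 leaving out a library. Between tissues (0), letter B gave 1 for age in kidney and liver, 2 for age in liver and quadriceps and 2 for corylin in kidney and liver. Leaving out an animal gave 0 to 1, 0 to 1 and 0 to 2 for age and corylin in liver and quadriceps and for corylin in kidney and liver. Changes that turned sign when a library was left out, with their range, were Gbp5 in corylin male liver (-0.77 to 1.70; -0.82 with letter B), Gbp9 in corylin female kidney (-0.71 to 0.024; 0.15 with letter B), Gbp2 in corylin male kidney (-0.71 to 0.43; 0.34 with letter B), Irgm1 in the sex difference of liver age (-0.38 to 0.087), Gbp6 in the sex difference of liver corylin (-0.0104 to 0.97) and Gbp6 in old female quadriceps (-0.12 to 1.30). Only the single-gene results defined above were searched for such turns, so this list does not cover all genes. With letter B alone, the number of the 10 genes above 0 went from 2 to 10 for corylin in male kidney. It went from 10 to 7 for age in male kidney and from 9 to 6 for corylin in male liver. Deviations of same-numbered replicates had 35 correlations from -0.251 to 0.482 (median 0.0268). In liver, old and corylin replicates had 0.302, 0.0572 and 0.300 in females and 0.312 and 0.482 in males, and their replicates 3 share the letter R. No comparison with 3 pairs had every correlation above 0.1, so the numbers were not taken to pair the animals. The replicate block moved the female liver count from 2 to 5 and changed few other calls (79 single-gene results as before, 4 gained and 2 lost).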
